A study of Mus musculus with 6 samples.

Results

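The 47 genes described here encode proteins that condense chromosomes, switch CDK1 on, build and check the spindle, and cut the dividing cell apart. They were chosen by gene name as genes of G2 and mitosis, and all 47 were found among the 16858 genes of the table. They were measured by RNA-seq in the liver of Aqp5+/+ (wild type, C57BL/6) and Aqp5-/- mice, in which the water channel gene was disrupted in the fertilized egg with CRISPR/Cas9, so that every cell type lacks it. All livers were collected 72 h after 70% partial hepatectomy (PHx) in which 3 lobes were removed, and the methods give 3-month-old male mice for this operation. Each genotype had 3 libraries. Unoperated livers were not analysed here, and no label says that the libraries came from separate mice, so the p-values cover only the spread from library to library, which may be technical. The comparison addresses whether loss of the channel was accompanied by a different level of mitotic transcripts in the regenerating liver.

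After PHx in mice, hepatocytes leave quiescence, replicate DNA and divide in loosely synchronous waves, and non-parenchymal cells follow later. Transcripts of mitosis genes are made late in the cell cycle: the DREAM complex represses them in resting cells through the MuvB core, and B-MYB and FOXM1 activate them on the same promoters in G2. The shared promoter elements are the cell cycle genes homology region, CHR, which the MuvB core contacts, and CCAAT boxes, which NF-Y binds. In bulk liver RNA, fewer dividing cells and less RNA per dividing cell cannot be told apart.

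Promoter windows of 300 bases (250 before to 50 after the RefSeq start, GRCm38.p6) were found for 39 of the 47 genes, 41 windows in all. Those of Aurkb, Ccna2, Cdc25c, Foxm1, Incenp, Kif20a, Smc4 and Tpx2 were not used here. The CHR was searched as TTTGAA or TTCGAA and the CCAAT box as CCAAT, both on either strand. A CHR stood in 30 of the 41 windows, or 73.2%, against 19.2% of all 32851 promoter windows, and a CCAAT box in 75.6% against 37.4%. Both were present in 65.9% of the windows of mitosis genes and in 7.52% of all windows, and they started within 50 bases of each other in 51.2% and 3.24%. The windows below are shown because these 6 genes drive entry into and exit from mitosis and carry different arrangements of the same elements, with CHR and CCAAT matches in capitals, 5′ to 3′ on the strand of the gene.
Ccnb1, chr13:100786437-100786736, minus strand: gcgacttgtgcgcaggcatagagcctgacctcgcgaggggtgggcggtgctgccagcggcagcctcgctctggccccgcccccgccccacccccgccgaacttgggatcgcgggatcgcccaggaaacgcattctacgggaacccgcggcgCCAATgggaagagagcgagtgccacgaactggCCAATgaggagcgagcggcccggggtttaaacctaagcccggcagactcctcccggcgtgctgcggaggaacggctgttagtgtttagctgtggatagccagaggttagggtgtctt
Ccnb2, chr9:70421505-70421804, minus strand: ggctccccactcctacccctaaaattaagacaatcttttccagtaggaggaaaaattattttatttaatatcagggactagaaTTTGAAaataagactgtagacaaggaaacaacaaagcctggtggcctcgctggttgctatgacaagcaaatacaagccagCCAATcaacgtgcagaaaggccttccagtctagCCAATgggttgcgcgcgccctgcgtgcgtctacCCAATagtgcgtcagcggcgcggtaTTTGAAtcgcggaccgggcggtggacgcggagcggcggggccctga
Cdc20, chr4:118437294-118437593, minus strand: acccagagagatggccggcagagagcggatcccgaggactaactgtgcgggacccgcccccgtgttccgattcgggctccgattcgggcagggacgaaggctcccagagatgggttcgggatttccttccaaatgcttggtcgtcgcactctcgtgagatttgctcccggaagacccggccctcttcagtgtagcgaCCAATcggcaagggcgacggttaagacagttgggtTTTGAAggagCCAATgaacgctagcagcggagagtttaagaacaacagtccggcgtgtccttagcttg
Cdk1, chr10:69352863-69353162, minus strand: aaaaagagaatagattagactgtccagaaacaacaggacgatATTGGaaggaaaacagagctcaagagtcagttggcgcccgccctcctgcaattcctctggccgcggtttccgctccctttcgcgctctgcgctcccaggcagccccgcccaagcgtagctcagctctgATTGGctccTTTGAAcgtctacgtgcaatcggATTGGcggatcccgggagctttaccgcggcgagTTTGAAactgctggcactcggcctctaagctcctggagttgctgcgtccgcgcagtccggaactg
Plk1, chr7:122159185-122159484, plus strand: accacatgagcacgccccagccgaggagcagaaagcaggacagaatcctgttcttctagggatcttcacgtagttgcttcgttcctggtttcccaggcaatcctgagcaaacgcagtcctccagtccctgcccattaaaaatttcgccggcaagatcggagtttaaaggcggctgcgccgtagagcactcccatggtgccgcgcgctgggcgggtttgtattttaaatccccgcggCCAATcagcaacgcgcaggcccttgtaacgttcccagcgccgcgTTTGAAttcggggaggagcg
Aurka, chr2:172370521-172370820, minus strand: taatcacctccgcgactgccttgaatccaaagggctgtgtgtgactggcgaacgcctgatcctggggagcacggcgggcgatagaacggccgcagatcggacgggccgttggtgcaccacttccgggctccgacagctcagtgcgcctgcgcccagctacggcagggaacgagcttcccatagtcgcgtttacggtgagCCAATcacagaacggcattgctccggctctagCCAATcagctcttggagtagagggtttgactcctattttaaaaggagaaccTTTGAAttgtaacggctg

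In the Cdc20 window, the CHR match started at -18 from the transcription start, between CCAAT boxes at -53 and -8. Ccnb2 held CCAAT boxes at -87, -54 and -21 and a CHR at 5 bases past the start, with a second CHR match at -167. Cdk1 had CHR matches at -71 and -15 and CCAAT boxes, all read on the other strand, at -208, -80 and -48. In Aurka and Plk1 the CHR match lay past the start, at 33 and 31. Ccnb1 had CCAAT boxes at -99 and -67 and no match to the CHR letters in this window. The window of Pttg1 held neither element. It is printed because Pttg1 stood apart from the other genes in the levels given below, a choice made after its values were seen. This window lies wholly inside the gene as annotated by GENCODE, chr11:43420250-43426251, so the sequence before that gene's start was not searched. The same holds for the windows of Kif2c, Cdca8 and Cdca3, which also lie wholly inside their annotated genes.
Pttg1, chr11:43425932-43426231, minus strand: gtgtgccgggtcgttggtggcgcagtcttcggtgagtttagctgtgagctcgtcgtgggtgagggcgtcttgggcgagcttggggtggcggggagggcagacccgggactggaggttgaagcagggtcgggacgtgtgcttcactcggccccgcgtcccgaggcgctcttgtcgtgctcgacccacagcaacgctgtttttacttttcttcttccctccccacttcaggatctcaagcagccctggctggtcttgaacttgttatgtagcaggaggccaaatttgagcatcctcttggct

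**Figure D1:**
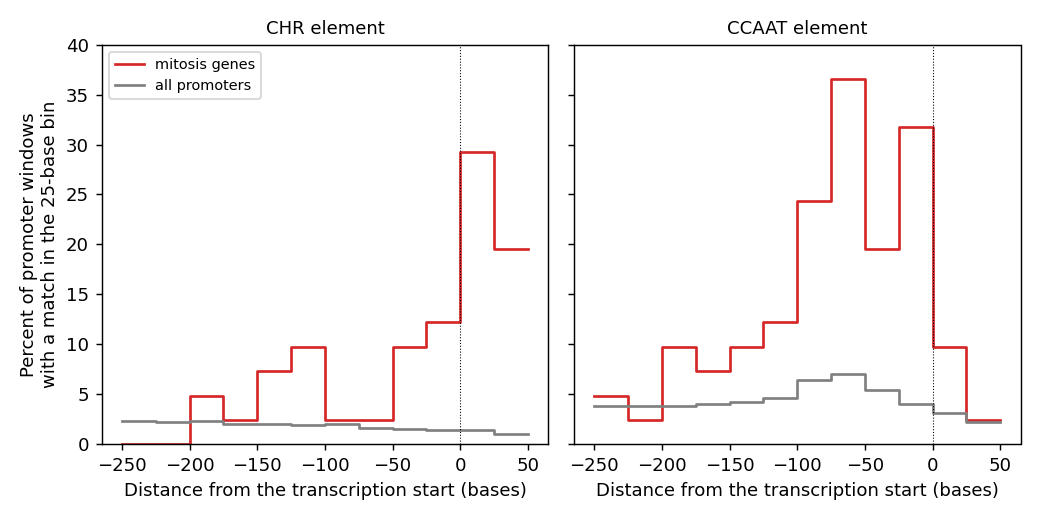
Percent of promoter windows with a CHR match (left) or a CCAAT match (right) in each 25-base bin, against distance from the transcription start in bases, for the 41 windows of mitosis genes (red) and all 32851 windows (grey). CHR matches of mitosis genes were most frequent in the bin just past the start, at 29.3% of windows, and CCAAT matches in the bin from -75 to -50, at 36.6%.

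Library totals ran from 7130831 counts in Aqp5+/+ replicate 2 to 15550006 in Aqp5-/- replicate 3, and levels are given as CPM, counts scaled to a common library size by TMM. Defining hepatocyte markers were present in every library, all 13 measured of 14, with a summed level of 84662 to 135705 CPM in Aqp5+/+ and 119983 to 126863 CPM in Aqp5-/- libraries. The 4 Y-linked genes summed to 287 to 471 CPM in Aqp5+/+ and 0.87 to 1.19 CPM in Aqp5-/- libraries, although the methods state males, so genotype and whatever separates the groups in these genes cannot be told apart in any result below. Aqp5+/+ replicate 2 stood apart in the mitosis genes, as described next. Aqp5-/- replicate 3 stood apart in markers of other cells. Its stellate markers (8 of 8 measured) summed to 2515 CPM against 498 and 596 CPM in the other Aqp5-/- libraries. Its cholangiocyte markers (7 of 7) summed to 443 CPM against 73.8 and 95.7 CPM. The median log2 level over the Aqp5+/+ mean was 0.91 against -0.31 and 0.12 for stellate markers. For cholangiocyte markers it was 3.38 against -1.02 and -0.39.

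No mitosis gene passed the test between the genotypes, and Aqp5+/+ replicate 2 lay below the other 5 libraries for 44 of 46 of them. Of the 46 that passed the filter on low counts, 0 were called at an adjusted p under 0.05 by edgeR's quasi-likelihood test, with 41 of 12353 genes, 0.332%, called in all. At an unadjusted p under 0.05, 0 of 46 were lower and 0 of 46 higher in Aqp5-/- livers, beside 4.48% and 4.3% of all genes, and DESeq2, edgeR's exact test and limma also called 0, where they called 1.94%, 1.81% and 0.364% of all genes. The same 3 tools gave 0 of 46 at an unadjusted p under 0.05 in either direction, beside 5.22%, 4.65% and 4.42% of all genes lower and 4.99%, 4.99% and 4.08% higher. The median log2 fold change of the 46 genes was 0.29 toward Aqp5-/- and that of all tested genes 0.01, with 40 above 0 and 6 below, where 51% of all genes lay above 0. Single values ran from -0.48 for Pttg1, the securin that holds separase, to 0.95 for the kinase gene Melk. The unadjusted p of the 46 genes lay between 0.119 and 0.982 and their adjusted p from 0.627 up to 0.994 by edgeR with Benjamini-Hochberg adjustment.

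The spread inside the Aqp5+/+ group was larger than the difference between the groups. Mki67, which encodes the Ki-67 protein that coats mitotic chromosomes and marks cycling cells (chr7:135689784-135716361, GRCm38, minus strand), was at 216, 35.0 and 154 CPM in Aqp5+/+ replicates 1 to 3 and at 212, 164 and 112 CPM in Aqp5-/- replicates 1 to 3. Replicate 2 alone was low among the Aqp5+/+ libraries, all Aqp5-/- libraries lay between it and replicate 1, and the groups overlapped. The log2 fold change of Mki67 was 0.27 (SE 0.56, 95% interval -1.01 to 1.55), and without Aqp5+/+ replicate 2 it was -0.19 (-0.92 to 0.55). This was the pattern of nearly all mitosis genes: Aqp5+/+ replicate 2 was the lowest library for 44 of 46, against 29.2% of all tested genes. The exceptions were Aurka and Pttg1, both lowest in Aqp5-/- replicate 3.

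Relative to the mean of Aqp5+/+ replicates 1 and 3, Aqp5+/+ replicate 2 was at least 2-fold lower in 43 of 46 genes (13.9% of all tested genes), at least 4-fold lower in 33 (4.47%) and at least 10-fold lower in 15 (1.65%). The median ratio was 6.57-fold for mitosis genes and 1.02-fold for all genes, and 2.55% of all genes had a larger ratio than 6.57. Among the 40 mitosis genes with more than 3 counts in that library, the ratio ran from 0.77 for Pttg1, the one gene that was higher there, to 21.1 for Cdc20. The other 6, Cdc25c, Cdca8, Hmmr, Kif2c, Nuf2 and Ube2c, had 3 or fewer counts there. All of these were among the 15 genes at least 10-fold lower, and they were kept in the counts and medians of this ratio. The library held 1 to 284 counts per gene with a median of 15.5. For 45 of 46 genes the 95% Poisson interval of its level lay below the levels of both other Aqp5+/+ libraries, Pttg1 excepted. These intervals cover counting error only, and only that of replicate 2, not that of the libraries it was set against. Some margins were small: for Melk the upper limit was 1.75 CPM against 1.79 CPM in Aqp5+/+ replicate 3, which had 22 counts.

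**Figure D2:**
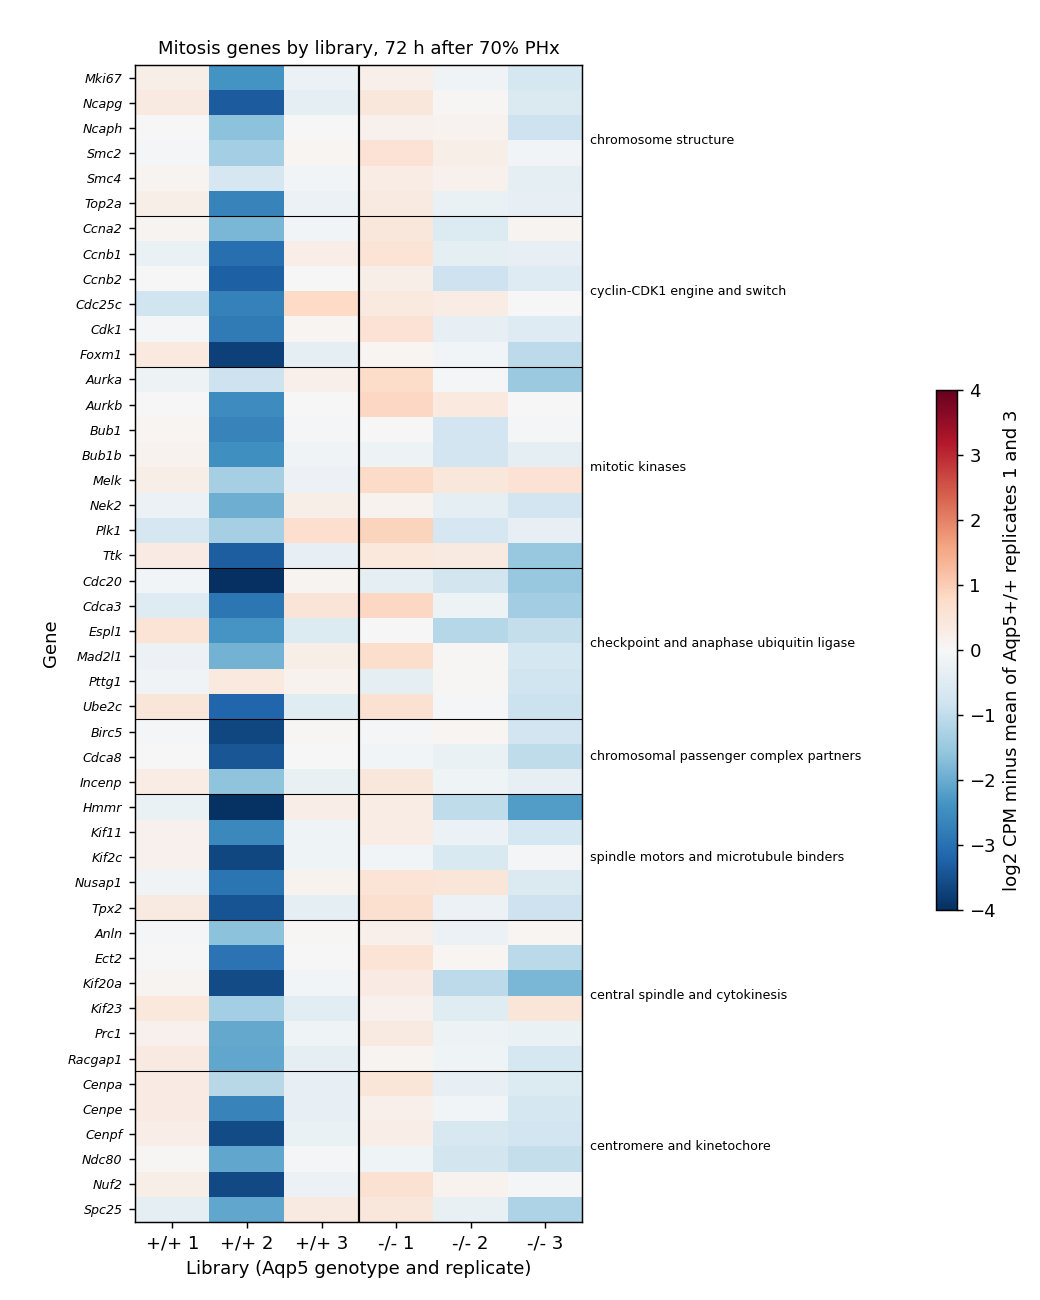
Log2 CPM (prior count 2) of the 46 tested mitosis genes in each of the 6 libraries, as the difference from the gene's mean in Aqp5+/+ replicates 1 and 3, grouped by role; blue is lower and red higher. The column of Aqp5+/+ replicate 2 is blue in every row but Pttg1, and the 3 Aqp5-/- columns scatter around the other Aqp5+/+ columns.

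**Figure D3:**
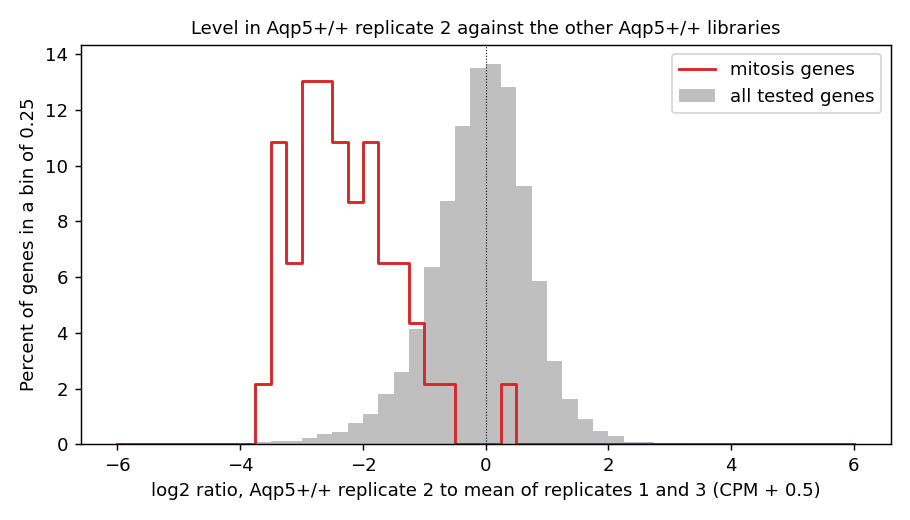
Distribution of the log2 ratio of Aqp5+/+ replicate 2 to the mean of Aqp5+/+ replicates 1 and 3, with 0.5 CPM added to both, over 12353 tested genes (grey bars) and 46 mitosis genes (red line), in percent of genes per bin. The mitosis genes lie to the left of the bulk of genes, with Pttg1 alone above 0.

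The direction of the genotype comparison depended on that library. Without it, 35 of 46 genes lay below 0 and 11 above, where 47.9% of all genes lay below, and the median log2 fold change was -0.08 in place of 0.29. The value of 45 of the 46 genes fell, which follows from their low level in that library, and that of 29 changed sign. Of the 46 genes, 0 were called (0.134% of all genes). At an unadjusted p under 0.05, 0 of 46 were lower and 0 higher, against 3.46% and 3.66% of all genes. Cdc20 had the lowest value, -0.81 (unadjusted p = 0.072, adjusted p = 0.741 by edgeR), and Melk the highest, 0.62. Without both Aqp5+/+ replicate 2 and Aqp5-/- replicate 3, a choice made after the data were seen, the median was 0.07 and again 0 of 46 genes were called (0.816% of all genes), with 0 at an unadjusted p under 0.05 in either direction (4.39% lower and 3.91% higher among all genes).

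The precision of these comparisons was limited. The SE of the log2 fold change had a median of 0.61 for mitosis genes and 0.34 for all genes. With all 6 libraries, the 95% intervals of 30 of 46 genes reached a 2-fold lower level in Aqp5-/- livers, those of 44 a 2-fold higher level, and those of 29 both. Without Aqp5+/+ replicate 2, the median SE was 0.39, and 27 intervals reached 2-fold lower, 11 reached 2-fold higher and 6 both. A 2-fold lower level in Aqp5-/- livers thus lay within the interval for 27 of 46 genes.

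**Figure D4:**
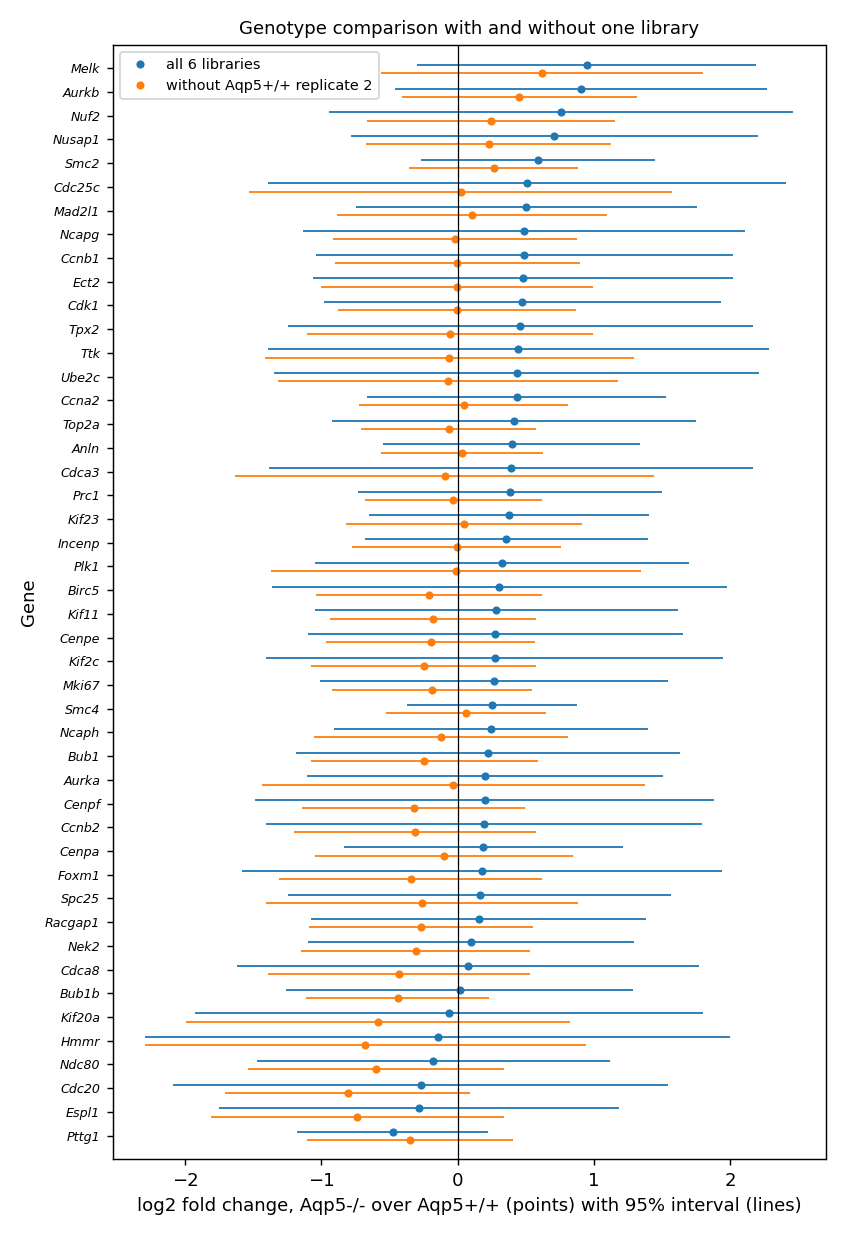
Log2 fold change (points) with its 95% interval (lines) for each of the 46 tested mitosis genes, Aqp5-/- over Aqp5+/+, from all 6 libraries (blue) and without Aqp5+/+ replicate 2 (orange), ordered by the value from all libraries. All 46 intervals hold 0 in both fits, and 45 of 46 points lie further left in orange.

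The Aqp5-/- libraries also differed among themselves. Aqp5-/- replicate 1 was the highest library for 30 of 46 genes (11.5% of all genes), followed by Aqp5+/+ replicate 1 for 10 and Aqp5+/+ replicate 3 for 3. Against the mean CPM of Aqp5+/+ replicates 1 and 3, the log2 ratio of CPM, with no prior count, was taken for each mitosis gene. Its median was 0.31 in Aqp5-/- replicate 1, -0.24 in replicate 2 and -0.72 in replicate 3. Replicate 1 lay above both of those Aqp5+/+ libraries in 30 genes, replicate 2 below both in 21 and replicate 3 below both in 36. The summed level of the mitosis genes was 980, 210 and 817 CPM in Aqp5+/+ replicates 1 to 3 and 1102, 774 and 599 CPM in Aqp5-/- replicates 1 to 3.

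Per kilobase of exon and leaving out Aqp5+/+ replicate 2, the level ran from 0.46 CPM per kb for Cdc25c to 17.1 for Mki67, with Smc4 at 13.3, Top2a at 7.17, Pttg1 at 6.46, Ccnb2 at 5.89 and Cdc20 at 5.05, and a median over the tested genes of 2.48. Cks2, a small CDK1-binding protein, had 1 count in Aqp5+/+ replicate 3 and 0 in the other libraries and was not tested.

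The chromosome structure genes held the most abundant transcripts. Top2a, the topoisomerase that untangles sister chromatids, was at 76.4, 10.1 and 56.2 CPM in Aqp5+/+ replicates 1 to 3 and at 83.7, 54.8 and 52.0 CPM in Aqp5-/- replicates. Smc2, an ATPase core subunit of condensin, was at 23.1, 9.31 and 25.5 CPM against 36.6, 28.4 and 22.6 CPM. Smc4, its partner in the same core, was at 72.8, 42.6 and 62.5 CPM against 83.0, 76.8 and 52.6 CPM. Aqp5+/+ replicate 2 lay below the mean of the other Aqp5+/+ libraries by 2.61-fold for Smc2 and 1.59-fold for Smc4, against 6.59-fold for Top2a. This ratio is called the gap of replicate 2 in what follows. Of the condensin I subunits, Ncapg stood at 1.05 CPM in that library against 9.44 to 15.8 CPM in the other Aqp5+/+ libraries, and Ncaph at 2.40 against 7.89 to 7.96 CPM. Smc2 had the log2 fold change 0.59 (SE 0.38, unadjusted p = 0.155) and 0.26 without Aqp5+/+ replicate 2.

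The cyclin and CDK1 genes had a wide gap of Aqp5+/+ replicate 2, with a median of 10.3-fold over 6 tested genes. Cdk1, the kinase that starts mitosis (its promoter carries CHR and CCAAT matches, above), was at 13.2, 1.80 and 14.5 CPM in Aqp5+/+ and 20.9, 11.0 and 9.70 CPM in Aqp5-/- libraries. The low value rested on 12 counts, with a 95% Poisson interval of 0.93 to 3.15 CPM. Its log2 fold change was 0.47 (SE 0.64), and without that library it was -0.0034. Ccna2, cyclin A, which acts in S phase and G2, was at 19.5, 4.96 and 16.4 CPM against 24.4, 12.1 and 19.2 CPM. Ccnb1, the main mitotic cyclin, was at 8.05, 1.05 and 11.6 CPM against 14.2, 7.56 and 7.68 CPM, and its reads are uncertain because 3 annotated processed pseudogenes match over 50% of its transcript at over 95% identity, which no other gene of the 47 showed. Ccnb2, a second B-type cyclin, was at 10.4, 0.90 and 10.01 CPM against 12.01, 5.65 and 7.02 CPM. Each of these genes had one Aqp5+/+ library far below all others, and none separated the genotypes. Foxm1, the transcription factor that activates many of the other genes in G2, was at 16.1, 0.75 and 9.12 CPM against 12.7, 11.3 and 5.83 CPM, and its low value rested on 5 counts.

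Among the mitotic kinases, Aurka and Plk1 departed from the common pattern. Aurka, the centrosome and spindle pole kinase, was at 5.53, 3.45 and 7.24 CPM in Aqp5+/+ and 10.5, 6.17 and 2.14 CPM in Aqp5-/- libraries, so that its lowest library was Aqp5-/- replicate 3. Plk1, the polo kinase of mitotic entry, was at 4.86, 3.00 and 12.4 CPM against 14.7, 4.78 and 6.19 CPM, with Aqp5+/+ replicate 3 and Aqp5-/- replicate 1 well above the rest. Aurkb, the kinase of the chromosomal passenger complex, followed the common pattern at 5.78, 0.90 and 6.02 CPM against 10.5, 7.74 and 6.01 CPM. Per kilobase, the ratio of Aurka to Aurkb was therefore 4.46 in Aqp5+/+ replicate 2, 1.11 and 1.40 in the other Aqp5+/+ libraries and 1.16, 0.93 and 0.41 in Aqp5-/- replicates 1 to 3. Bub1b, the BubR1 checkpoint protein, was at 17.1, 2.70 and 14.2 CPM against 13.6, 9.13 and 12.02 CPM. Melk, a kinase abundant in proliferating cells, was at 2.51, 0.75 and 1.79 CPM against 3.73, 2.96 and 3.27 CPM. It was the one gene of 46 whose Aqp5-/- libraries all lay above the Aqp5+/+ libraries, where 6.93% of all genes did so, and its log2 fold change was 0.95 (SE 0.55, unadjusted p = 0.119, adjusted p = 0.627 by edgeR). No gene had all Aqp5-/- libraries below, against 7.8% of all genes.

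The genes of the spindle checkpoint and of anaphase onset held both a wide gap and the one gene with none. Cdc20, the activator of the anaphase-promoting complex, APC/C, was at 11.6, 0.60 and 13.8 CPM in Aqp5+/+ and 9.90, 7.56 and 4.34 CPM in Aqp5-/- libraries. All 3 Aqp5-/- libraries lay below Aqp5+/+ replicates 1 and 3 and above replicate 2, which had 4 counts. Mad2l1, the checkpoint protein that holds Cdc20 inactive, was at 10.2, 3.15 and 14.3 CPM against 19.96, 12.4 and 7.38 CPM. Pttg1, an APC/C target, was at 13.3, 19.2 and 16.3 CPM against 11.5, 15.1 and 8.39 CPM, with Aqp5+/+ replicate 2 the highest library of all. Its log2 fold change was -0.48 (SE 0.31, unadjusted p = 0.154). Espl1, the separase that Pttg1 holds inactive, was in contrast at 2.25 CPM in Aqp5+/+ replicate 2 and 8.30 to 17.8 CPM in the other Aqp5+/+ libraries.

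The chromosomal passenger genes and the spindle motors were low in Aqp5+/+ replicate 2 together with Aurkb. Birc5, the survivin subunit, was at 9.05, 0.60 and 9.77 CPM in Aqp5+/+ and 9.01, 9.997 and 5.48 CPM in Aqp5-/- libraries. Kif11, the kinesin that pushes spindle poles apart, was at 25.3, 3.604 and 19.9 CPM against 27.3, 19.0 and 13.8 CPM. Tpx2, which activates Aurora A and nucleates spindle microtubules, was at 23.6, 1.502 and 14.0 CPM against 28.6, 15.6 and 10.2 CPM. For Birc5, Kif11 and Tpx2 the Aqp5-/- libraries spanned the range of Aqp5+/+ replicates 1 and 3. The gap of replicate 2 was 1.85-fold for Aurka and 12.5-fold for its activator Tpx2.

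The cytokinesis genes had a narrower gap, with a median of 4.41-fold over 6 genes. Racgap1, a GTPase-activating subunit of the centralspindlin complex, was at 19.6, 3.45 and 11.7 CPM in Aqp5+/+ and 16.3, 13.6 and 9.23 CPM in Aqp5-/- libraries. Anln, the contractile ring scaffold anillin, was at 17.9, 5.86 and 19.1 CPM against 21.5, 15.7 and 19.6 CPM. Kif23, the kinesin partner of Racgap1 in centralspindlin, gave a ratio to Racgap1 per kilobase of 1.05, 1.71 and 0.98 in Aqp5+/+ and 1.06, 0.80 and 2.32 in Aqp5-/- libraries. The partners thus did not keep one proportion in Aqp5-/- replicate 3. The ratio in Aqp5+/+ replicate 2 rested on 44 counts of Kif23 and 23 of Racgap1, with no interval computed for it.

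The kinetochore genes Ndc80, Nuf2 and Spc25 encode subunits of the complex that holds spindle microtubules. Ndc80 was at 7.12, 1.502 and 6.67 CPM in Aqp5+/+ and 6.17, 4.09 and 3.45 CPM in Aqp5-/- libraries. Nuf2 was at 6.62, 0.30 and 4.64 CPM against 8.52, 6.17 and 5.36 CPM, with 2 counts in Aqp5+/+ replicate 2. Spc25 was at 9.14, 2.70 and 15.3 CPM against 16.1, 9.65 and 4.94 CPM. Members of one complex thus had log2 fold changes on both sides of 0, at -0.18 for Ndc80, 0.76 for Nuf2 and 0.16 for Spc25, with SE of 0.57, 0.75 and 0.62. Among the 6 centromere and kinetochore genes, Cenpa, the centromeric histone, had the narrowest gap of Aqp5+/+ replicate 2, 2.28-fold.

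Genes with and without the promoter elements overlapped in the gap of Aqp5+/+ replicate 2. The median gap was 6.43-fold for the 28 tested genes with a CHR match and 5.44-fold for the 10 without one. For the CCAAT box it was 6.68-fold for the 28 genes with a match and 4.24-fold for the 10 without. The 25 genes with both elements had a median of 6.59-fold. The 7 genes with neither element, Birc5, Mad2l1, Melk, Ncaph, Nuf2, Nusap1 and Pttg1, had a median of 3.89-fold, and they held both Pttg1 at 0.77 and Birc5 at 15.7. These are descriptions of windows that differ in number, with no test. The windows of Pttg1, Kif2c, Cdca8 and Cdca3 lay inside the annotated genes, as given above.

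Other genes of the cell cycle were read from lists of the same kind. Of 66 tested genes among 78 other mitotic genes, 0 were called and 2 were higher at an unadjusted p under 0.05, Hjurp, the CENP-A chaperone (0.62), and the kinetochore gene Mis12 (0.93), with 0 lower, beside 4.3% of all genes higher and 4.48% lower. The median over this list was 0.26 on the log2 scale with all libraries and -0.12 without Aqp5+/+ replicate 2, which lay below the other Aqp5+/+ libraries by a median of 3.92-fold. By contrast, the 18 genes of the checkpoint and APC/C list summed to 539, 549 and 531 CPM in Aqp5+/+ and 519, 521 and 541 CPM in Aqp5-/- libraries, with a median gap of 1.05-fold and 0 called. The 19 tested genes for factors that act on mitotic promoters, MuvB, E2F and NF-Y subunits among them, had a median gap of 1.02-fold, with 0 called, 0 lower and 1 higher at an unadjusted p under 0.05, Rbl1, the p107 pocket protein (0.82), against the same 4.3% of all genes higher. Mybl2, the B-MYB gene, was at 3.35, 3.45 and 1.55 CPM against 2.52, 4.78 and 3.04 CPM, with no gap like that of Foxm1. E2f8, a repressor of E2F targets, was at 20.2, 21.0 and 17.0 CPM against 15.3, 17.8 and 4.46 CPM.

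Genes that switch CDK1 on or off were called in 0 of 10 cases, and 2 were higher and 0 lower at an unadjusted p under 0.05, beside 4.3% and 4.48% of all genes. Cdc25a, a phosphatase that activates CDK1 and CDK2, was at 8.30, 4.05 and 7.41 CPM in Aqp5+/+ and 10.1, 11.1 and 25.7 CPM in Aqp5-/- libraries (unadjusted p = 0.023, adjusted p = 0.482). Cdkn1a, the p21 inhibitor, was at 11.99, 7.81 and 8.30 CPM against 15.98, 9.48 and 33.5 CPM (unadjusted p = 0.046, adjusted p = 0.564). In both, Aqp5-/- replicate 3, the library with the high stellate and cholangiocyte markers, was well above the others, and the part of those cells was not tested. Wee1, the kinase that inhibits CDK1, was at 12.7, 2.25 and 12.3 CPM against 15.8, 28.5 and 11.5 CPM.

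S-phase genes were called in 0 of 28 cases (0.332% of all genes), and 4 were higher and 0 lower at an unadjusted p under 0.05, where 4.3% of all genes were higher and 4.48% lower. The median of their log2 fold changes was 0.53, and 0.27 without Aqp5+/+ replicate 2, where the mitosis genes had -0.08. Cdc6, which loads the replicative helicase, was at 2.10, 0.45 and 3.09 CPM in Aqp5+/+ replicates and 12.01, 5.56 and 3.93 CPM in Aqp5-/- replicates, and its log2 fold change was 1.88 (SE 0.68, unadjusted p = 0.023, adjusted p = 0.48 by edgeR). Lig1, the replicative DNA ligase, was at 11.7, 4.96 and 11.3 CPM against 22.6, 20.5 and 14.8 CPM. Pcna, the sliding clamp, was at 38.1, 18.9 and 41.3 CPM against 50.4, 50.9 and 44.6 CPM, and Mcm2, a helicase subunit, at 11.8, 3.00 and 15.1 CPM against 20.4, 13.3 and 14.998 CPM. Of these 4 genes, which were picked by low p or by role, Cdc6, Lig1 and Pcna had all Aqp5-/- libraries above the Aqp5+/+ libraries, as 6.93% of all genes had. The summed mitosis genes stood to the summed S-phase genes as 2.503, 1.14 and 2.13 in Aqp5+/+ and as 2.05, 1.59 and 1.49 in Aqp5-/- libraries, so Aqp5+/+ replicate 2 had both the lowest sums and the lowest ratio, and the other Aqp5+/+ libraries had the highest ratios.

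**Figure D5:**
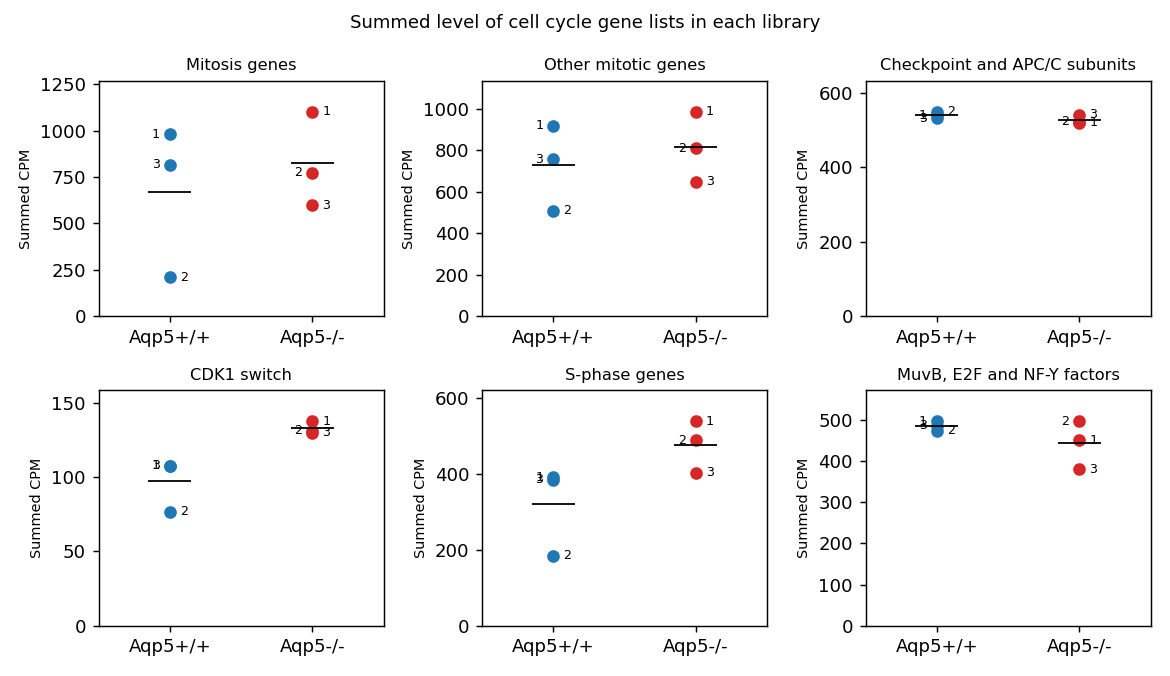
Summed CPM of 6 cell cycle gene lists in each library, with each point numbered by replicate and the mean of the 3 libraries of a genotype as a line; each axis starts at 0. Aqp5+/+ replicate 2 is the lowest point for the mitosis genes (210 CPM) and S-phase genes (184 CPM), while the checkpoint and APC/C list lies between 519 and 549 CPM in all 6 libraries.

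Several other levels differed in Aqp5+/+ replicate 2, and their part in the low mitosis genes was not tested. It was the shallowest library. Alb, the albumin gene, took 3.66% of its counts and 6.34 to 8.43% in the other libraries. Granulocyte precursor markers (5 of 5 measured) summed to 0.30 CPM there, against 14.5 and 31.7 CPM in the other Aqp5+/+ libraries and 2.74 to 15.8 CPM in Aqp5-/- libraries. Of these markers, Mpo and Elane were at 0 counts in Aqp5+/+ replicate 2 alone, Ctsg was at 0 there and in Aqp5+/+ replicate 1 and Aqp5-/- replicate 3, and Ms4a3 was at 0 in all 6 libraries. Erythroid markers, 10 measured of 12, summed to 72.7 CPM in it against 139 and 155 CPM in the other Aqp5+/+ libraries and 52.5 to 89.4 CPM in the Aqp5-/- libraries. Lymphocyte markers, 12 of 12, summed to 53.0 CPM in it and 6.07 to 24.6 CPM elsewhere. Over the 10 tested ones, the gap of replicate 2 had a median of 0.72-fold and a lowest value of 0.069-fold, where values under 1 are higher there. Between the genotypes, macrophage markers, 11 measured of 12, summed to 382 to 677 CPM in Aqp5+/+ and 837 to 1694 CPM in Aqp5-/- libraries, with Csf1r at 0 counts in Aqp5+/+ replicate 2. Of the 10 tested, edgeR called 0 (0.332% of all genes) and DESeq2 5 (1.94%). By edgeR, 9 were higher and 0 lower at an unadjusted p under 0.05 (4.3% and 4.48%). Neutrophil markers, 10 of 10, summed to 4.81 to 23.8 CPM in Aqp5+/+ and 28.2 to 120 CPM in Aqp5-/- libraries. Of the 8 tested, edgeR called 1 and DESeq2 2, with 5 higher and 0 lower at an unadjusted p under 0.05 by edgeR. In both lists limma called 0 (0.364%). Ly6g, Retnlg and Ngp were at 0 counts in Aqp5+/+ replicates 1 and 2, Camp in Aqp5+/+ replicates 2 and 3, and Csf3r in Aqp5-/- replicate 1. Which cells carried the mitotic transcripts was not tested.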

How the data were processed

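Liver RNA of 3 Aqp5+/+ and 3 Aqp5-/- libraries was used as raw counts per gene, deposited in one table. The authors trimmed reads (cutadapt 1.9.3 per the submitters' notes), aligned them to mm10 (HISAT2 2.0.4) and counted with HTSeq. Labels and methods name different rRNA removal and library kits, and the strand setting of the counting is not given in the sources used here, so antisense and overlapping reads cannot be told apart. The 6 columns of log2 values were not used. Genes were kept by filterByExpr (minimum count 10, minimum total 15), counts were scaled by TMM, and genotypes were compared with edgeR 4.0.16 (R 4.3.3) by its 2-sided quasi-likelihood test with robust estimation and Benjamini-Hochberg adjustment over all 12353 tested genes, after testing on simulated data. Log2 levels used a prior count of 2. DESeq2 1.42.0, limma 3.58.1, other scalings and filters, the replicate block and leaving out libraries were alternatives.

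Coordinates and exon lengths came from GENCODE vM21 (GRCm38, the same sequence as mm10), which held 16666 of the 16858 genes, and promoters from RefSeq. Genes and lists were chosen with earlier results of these data known. Values per library are given for 23 genes chosen by role and for the 3 tested genes of lowest p. For other lists they are given for genes chosen by role and for some of the 3 of lowest p. Of those lowest in p, Hjurp, Mis12 and Rbl1 have a log2 fold change only. Cenpw, Cdc26, Anapc16, Anapc7, Chek1, Lin54, Nfyc and Cdc45 are not shown. The expression of Aqp5 was not analysed here.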

Additional observations from a re-analysis of the deposited data

How the results depend on the processing

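No alternative called a mitosis gene or gave one an unadjusted p under 0.05. The 41 genes called in all became 240 with DESeq2, 223 with edgeR's exact test and between 4 and 101 when libraries were left out, the highest without both Aqp5+/+ replicate 2 and Aqp5-/- replicate 3. The median log2 fold change of the mitosis genes was 0.31 with DESeq2 and with the exact test, 0.30 with RLE, 0.28 with no filter, 0.29 with the stricter filter, 0.64 with limma and 0.44 with library totals alone, where the median of all genes was 0.17. Leaving out 1 library gave -0.08 to 0.67, the lowest without Aqp5+/+ replicate 2 and the next, 0.05, without Aqp5-/- replicate 1. Cdc20 and Ndc80 changed sign with limma (0.49 and 0.076) and with the replicate number as a block (0.16 and 0.0064). The block gave a median of 0.55 and 0 calls among mitosis genes. Same-numbered libraries correlated at -0.063, 0.232 and 0.149 in their deviations and not every library did so best with its own number, so the numbers were not taken as pairs.

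With libraries left out, log2 fold changes that crossed 0 ranged as follows for genes chosen by role or by low p. Mitosis genes not listed here also crossed 0, and 29 of all 46 changed sign without Aqp5+/+ replicate 2 alone. Mki67 lay between -0.19 and 0.78, Top2a between -0.065 and 0.92, Cdk1 between -0.0034 and 0.85, Ccnb1 between -0.0031 and 1.06, and Ccnb2 between -0.31 and 0.55. Aurka lay between -0.40 and 0.61, Bub1b between -0.47 and 0.42, Plk1 between -0.31 and 1.10, and Cdc20 between -0.81 and 0.22. Birc5 lay between -0.21 and 0.71, Kif11 between -0.18 and 0.74, Tpx2 between -0.054 and 1.19, Ndc80 between -0.60 and 0.13, and Spc25 between -0.33 and 0.76. Racgap1 lay between -0.27 and 0.75, Foxm1 between -0.35 and 0.97, and Mybl2 between -0.0023 and 0.57. Apart from the libraries named, the cause of these changes was not tested. Genes with few counts in the shallowest library limit the depth of single values there.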
